A study of Drosophila melanogaster with 2 samples.

Results

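Binding of the homeodomain protein Bsh was examined at 8 genes of synaptic release and neuronal excitability, brp, Syt1, nSyb, Syx1A, para, cac, futsch and Rdl, out of 13945 annotated protein-coding genes. The genes were taken as a named list, and a peak was assigned to a gene where its summit lay in the annotated gene span or within 2 kb of either end. The data are chromatin immunoprecipitation sequencing (ChIP-seq) of whole *Drosophila melanogaster* embryos of 10 to 12 h from the transgenic strain bsh-GFP, in which Bsh carries GFP at its C terminus and was precipitated with an antibody against GFP. There were 2 biological replicates of this single group and no other condition. The labels do not say whether untagged Bsh was also present or what drives the tagged copy. Their antibody field names bsh while their description gives an antibody against GFP, and the description was followed here, so whether any untagged Bsh is in the signal is not known. The lists hold no expression values, so the tissue could not be checked against marker genes. The number of reads behind the peaks is unknown.

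Chemical synapses release transmitter when calcium entering at the active zone, the presynaptic release site, triggers fusion of vesicles with the plasma membrane. Fusion is carried out by SNARE proteins: nSyb (neuronal Synaptobrevin) is the SNARE of the vesicle and Syx1A (Syntaxin 1A) one of the plasma membrane, while Syt1 (Synaptotagmin 1) is the calcium sensor. brp encodes Bruchpilot, a scaffold of the active zone, and cac encodes Cacophony, the pore-forming subunit of the presynaptic calcium channel. para encodes the voltage-gated sodium channel that carries action potentials, Rdl a subunit of chloride channels gated by the inhibitory transmitter GABA, and futsch a microtubule-associated protein that shapes axons and synaptic terminals.

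None of the 8 genes had a reproducible Bsh peak inside its own span, and 2 of them, nSyb and Syx1A, had such peaks in the flanking 2 kb. Reproducible here means the set that the authors thresholded on the irreproducible discovery rate (IDR), which measures how well the ranks of peaks repeat between replicates. Of all protein-coding genes, 41.8% had an IDR summit in a window of this kind and 15.6% had it in the span itself. The 8 genes are long, with a median window of 41056.5 bp against 6166 bp for all genes. Among genes whose windows were within 25% of the length, the share with an IDR summit in the window was higher. It was 45.4% for genes as long as Syx1A, 53.6% for nSyb, 62.0% for futsch, 63.6% for brp, 63.9% for Rdl, 66.7% for cac, 69.0% for Syt1 and 72.3% for para. No such share was taken for the span itself, and no test was made of the difference between the 8 genes and the rest. The 3 IDR peaks are printed whole because they are the only peaks of the IDR set in the 8 windows, though most weaker peaks there were also found in both replicates. The strongest peaks of the 8 windows that ranked below the IDR set and lay outside transcribed untranslated sequence, 1 at nSyb and 1 at futsch, are printed for contrast as 101 bp centred on the summit. All were read from the RefSeq sequence of genome release 6 (assembly dm6) on the forward strand, and capitals mark TAAT on either strand (TAAT or ATTA), the core letters recognised by many homeodomain proteins.
nSyb upstream, IDR peak, chr3L:1639435-1639708: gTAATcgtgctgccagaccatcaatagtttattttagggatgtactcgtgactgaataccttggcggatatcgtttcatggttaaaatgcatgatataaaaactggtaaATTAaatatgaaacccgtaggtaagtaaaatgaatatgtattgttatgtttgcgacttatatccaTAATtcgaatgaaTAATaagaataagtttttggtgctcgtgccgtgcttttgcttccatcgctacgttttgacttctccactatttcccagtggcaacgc
Syx1A upstream, IDR peak, chr3R:24106318-24106543: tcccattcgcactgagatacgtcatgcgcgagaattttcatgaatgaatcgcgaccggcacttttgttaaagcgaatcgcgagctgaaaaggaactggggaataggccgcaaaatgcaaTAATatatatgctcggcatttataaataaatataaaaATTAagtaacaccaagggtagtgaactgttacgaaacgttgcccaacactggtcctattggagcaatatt
Syx1A downstream, IDR peak, chr3R:24100837-24100997: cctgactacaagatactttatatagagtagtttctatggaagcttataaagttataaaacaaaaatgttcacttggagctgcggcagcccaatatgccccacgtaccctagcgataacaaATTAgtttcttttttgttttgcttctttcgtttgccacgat
nSyb downstream, below the IDR set, chr3L:1629544-1629644: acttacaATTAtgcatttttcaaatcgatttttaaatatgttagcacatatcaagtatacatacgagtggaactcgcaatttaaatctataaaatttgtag
futsch upstream, below the IDR set, chrX:1407851-1407951: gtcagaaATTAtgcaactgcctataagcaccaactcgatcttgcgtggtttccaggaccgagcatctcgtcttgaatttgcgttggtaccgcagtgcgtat

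The IDR peak upstream of nSyb held 4 copies of TAAT, the one upstream of Syx1A 2 and the one downstream of Syx1A 1. Within 50 bp of the summit all 3 had TAAT, as had 80.2% of all IDR peaks. The longer letters TAATTA, found near 11.0% of all IDR summits, and TAATTG, found near 10.9%, contain TAAT and were near none of the 3. Also searched on both strands and near none of the 3 were ATCGAT, which 3.61% of all IDR peaks had, GAGAGA, which 3.2% had, and CACACT, which 4.91% had. The 101 bp shown of each peak below the IDR set held 1 TAAT, and those at nSyb also held TAATTG and ATCGAT; these peaks are wider than the stretch shown, so the copies cannot be set against those of the whole IDR peaks. A match is a description of the letters, not a site shown to be bound.

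The IDR set held 7927 peaks, which were the 7927 strongest of a list called on the pooled replicates. Each of the pooled and replicate lists was 30000 peaks long, a set limit, and ranks the peaks by the signal value that the peak caller gave. A gene without a summit therefore had none among the strongest 30000 peaks, which is not a measure of absent binding. Since the embryos were used whole, binding in fewer cells and weaker binding per cell cannot be told apart. The 8 windows held 20 pooled summits, 3 of them in the IDR set and 17 at ranks 8513 to 29313. Their median rank was 17394.5, and the 10 that lay inside a gene span ranked 9855 at best.

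At least 1 pooled summit was found in the windows of 6 of the 8 genes, beside 62.5% of all protein-coding genes. Among genes of like window length the share was higher, from 67.9% for Syx1A to 80.7% for Syt1. Replicate 1 had summits at 6 of the 8 and replicate 2 at the same 6, beside 65.5% and 65.6% of all genes. The span itself held a pooled summit in 4 genes, nSyb, Syx1A, para and futsch, beside 31.5% of all genes, which are mostly shorter. cac and Rdl had no summit in any of the 4 lists. Of the 20 summits, 4 were upstream of the gene, 10 inside and 6 downstream, and 9 were nearer to the transcription start site (TSS) of another gene than to one of the gene's own.

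**Figure D1:**
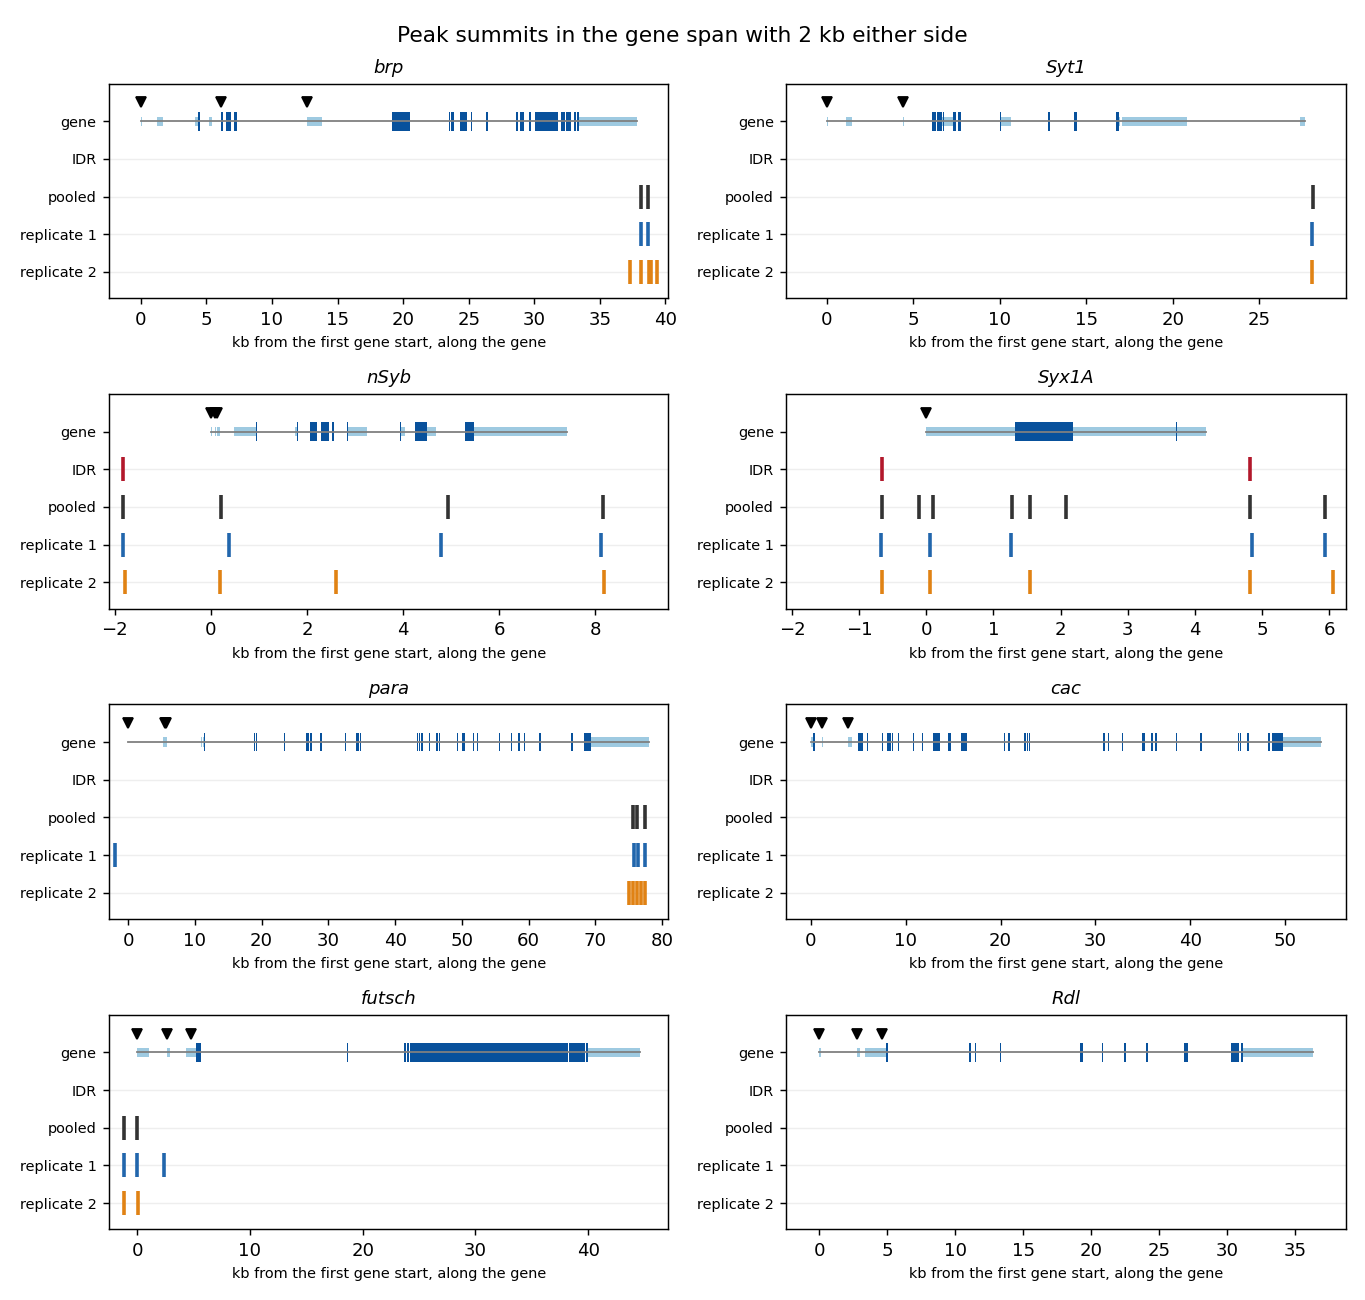
Each panel shows a gene along its direction of transcription, in kb from its first annotated start, with 2 kb either side. Wide dark boxes are coding sequence, narrow light boxes are other exons, triangles are TSSs, and ticks mark the summits of the IDR, pooled, replicate 1 and replicate 2 lists. The 3 red IDR ticks stand in the flanks of nSyb and Syx1A, all but 1 tick of para and all of brp gather at the 3′ end, and cac and Rdl have none.

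The vesicle SNARE nSyb had its strongest peak upstream, beside the start of a divergent neighbour. The gene (FBgn0013342) lies on the minus strand of 3L from 1630348 to 1637752. The IDR summit at 1639571 was 1819 bp upstream of the first nSyb start and 140 bp from the TSS of Bgb (Big brother, a partner of Runt-domain transcription factors), which starts at 1639711 on the plus strand. The peak was therefore in the promoter class through Bgb and not through nSyb. Its signal value was 444 in the pooled list, where it ranked 2620, and the IDR peaks ran from 151 to 8178 with a median of 312. In replicate 1 it had a signal value of 273 and rank 2395, and in replicate 2 a signal value of 164 and rank 3223. The signal scale differs between lists, so the ranks are the values to compare. The replicate summits were 7 and 39 bp from the pooled summit.

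At the start of nSyb itself the peak was weak in every list. The pooled summit at 1637540, 72 bp from the nearest of the 3 nSyb TSSs, had a signal value of 41.9 and rank 21410, with ranks 27938 and 24280 in replicates 1 and 2. The stronger peak printed above lay at the other end, with its summit at 1629594, 754 bp beyond the 3′ end of nSyb. It was 293 bp from the TSS of GC (gamma-glutamyl carboxylase) and had a signal value of 140 and rank 8513. Both replicates held it at similar ranks, 8505 and 9682. Inside the gene, an intronic summit at 1632822 ranked 25821 and overlapped a peak of rank 19474 in replicate 1 and none in replicate 2. Replicate 2 alone had a second intronic summit, at 1635151, with rank 27352. The intron peaks thus did not repeat between the replicates among the strongest 30000.

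The membrane SNARE Syx1A had the most pooled summits of the 8 genes, in the shortest window. The gene (FBgn0013343) has 1 TSS and lies on the minus strand of 3R from 24101600 to 24105763, wholly inside the span of eIF4EHP, a cap-binding repressor of translation that runs from 24063077 to 24108960 on the same strand. Its window of 8164 bp held 8 pooled summits, or 9.8 per 10 kb, where the median over all protein-coding genes was 1.86 per 10 kb. Of the 4214 genes whose windows were within 25% of this length, 99.2% had at most 8 pooled summits. Each replicate list had 5 summits in the window, a number that brp and para also had in replicate 2. Of the 8 pooled peaks, 2 pairs shared a peak in each replicate and 1 overlapped none.

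Both IDR peaks of Syx1A flanked the gene and were intronic through eIF4EHP, and Syx1A had the TSS nearest to each. The upstream summit at 24106426 was 663 bp from the TSS, with a signal value of 361 and rank 3346. In replicate 1 its signal value was 223 at rank 3069, and in replicate 2 it was 138 at rank 3940. The replicate summits were 4 and 9 bp from the pooled one. The downstream summit at 24100935 was 665 bp beyond the 3′ end, with a signal value of 178 and rank 6865. It had a signal value of 111 at rank 6420 in replicate 1 and of 65.5 at rank 8448 in replicate 2. By pooled rank, 6865 of the 7927 IDR peaks, the downstream peak was thus in the lower part of the IDR set and the upstream peak, at 3346, was not.

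At the Syx1A start, the pooled summit at 24105666 was 97 bp inside the gene, with a signal value of 112 and rank 10133. The replicates ranked it 10146 and 9850, a difference of 296 places, the smallest in the 8 windows. A second pooled summit 106 bp upstream, at 24105869 and rank 19865, overlapped the same replicate peaks and was not a separate peak in them. Deeper in the gene were summits in the 5′ UTR at 24104491 (rank 20946) and in coding sequence at 24104219 (rank 28862). Both overlapped the same peak in each replicate, of rank 14460 in replicate 1 and 24638 in replicate 2. The summits of these replicate peaks were 291 bp apart. That of replicate 1 was 10 bp from the UTR summit and that of replicate 2 was 9 bp from the coding summit, so their ranks are not those of the same position. The coding summit at 24103684 had the last rank of all, 29313, and overlapped no replicate peak. In the eIF4EHP intron 1777 bp beyond the 3′ end, a summit at 24099823 ranked 11785, with replicate ranks 12765 and 9059. The Syx1A promoter peak was thus close in rank in both replicates, while each of the UTR and coding summits had a near summit in at most 1 replicate.

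Syt1, the calcium sensor of fusion, had a single weak peak in its window, beyond its 3′ end. The gene (FBgn0004242) lies on the minus strand of 2L from 2772327 to 2799979. The summit at 2771904 was 423 bp beyond the 3′ end and 128 bp from the TSS of CG15399, with a signal value of 42.5 and rank 21162. It ranked 23212 in replicate 1 and 29134 in replicate 2. No list had a summit in the 27653 bp of the gene or in the 2 kb upstream of its first start. Just outside the window, a pooled summit of rank 24661 lay 2073 bp upstream of that start, at 2802052. Of the 503 genes of like window length, 80.7% had a pooled summit, and 25% had at most 1 pooled summit.

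At the active zone scaffold brp all summits were near or beyond the 3′ end, where a neighbouring gene also ends. brp (FBgn0259246) lies on the plus strand of 2R from 9503765 to 9541565, and CG1888 runs towards it on the minus strand from 9548135 down to 9541947. The pooled summit at 9541921 was intergenic, 356 bp beyond the 3′ end, with a signal value of 53.2 and rank 17830, and ranked 24046 and 18536 in replicates 1 and 2. The other, at 9542479, was 914 bp beyond the 3′ end in the 3′ UTR of CG1888, with a signal value of 40.9 and rank 21849. Replicate 2 ranked it 12432 and replicate 1 24948, a difference of 12516 places, the widest in the 8 windows. Replicate 2 had 5 summits in the window against 2 in replicate 1, among them the 1 summit in the brp span in any list, at 9541049 in the brp 3′ UTR with rank 20879. No list had a summit near any of the 3 brp TSSs, and the nearest pooled summit to the first start was 38156 bp away. Of all protein-coding genes, 94.0% had a pooled summit nearer to their start than that.

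The calcium channel gene cac and the GABA receptor gene Rdl had no summit in any list. cac (FBgn0263111) lies on the minus strand of X from 11931280 to 11985087, with a window of 57808 bp. Rdl (FBgn0004244) lies on the minus strand of 3L from 9145838 to 9182149, with a window of 40312 bp. The nearest pooled summit was 6462 bp from the span of cac, 156 bp from the TSS of Sclp at rank 27318, and 7899 bp from that of Rdl, 79 bp from the TSS of nwk at rank 26783. The nearest IDR summits were 10150 bp from cac and 16625 bp from Rdl, each intronic in another gene. Long genes without a peak were common. Of the 521 protein-coding genes with windows at least as long as that of Rdl, 133 (25.5%) had no pooled summit and 108 had none in any list. Over genes of all lengths, 30.3% had none in any list.

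The sodium channel gene para, the longest of the 8, had its peaks in the 3′ UTR. The gene (FBgn0285944) lies on the minus strand of X from 16455027 to 16533096 and spans 78070 bp. The strongest summit, at 16456837, was 1810 bp from the 3′ end, with a signal value of 117 and rank 9855, and ranked 9191 in replicate 1 and 10718 in replicate 2. In the pooled list and in replicate 1 it was the highest-ranked summit inside any of the 8 spans, and in replicate 2 that was the Syx1A promoter peak, at rank 9850. On either side of it, the summit at 16457448 ranked 16091 (14409 and 16366 in replicates 1 and 2) and that at 16455695 ranked 18165 (22104 and 16405). All 3 pooled summits were thus in both replicates, within 2421 bp of the 3′ end, and at least 69966 bp from the nearest para TSS. Replicate 2 had further summits in the same UTR at 16456352 and 16458007, ranked 20476 and 26389. Near the 5′ end the 1 summit in any list was that of replicate 1 at 16534968, 1872 bp upstream, with rank 28788. Of all pooled summits 1.94% were in a 3′ UTR, and of the 20 in the 8 windows 4 were, 3 of them in para.

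The cytoskeletal gene futsch had summits at its 5′ end. The gene (FBgn0259108) lies on the plus strand of X from 1409069 to 1453686. The intergenic summit at 1407901, printed above, was 1168 bp upstream of the first start, with a signal value of 123 and rank 9427. It ranked 8841 in replicate 1 and 11230 in replicate 2. The summit at the first TSS, 17 bp inside it at 1409086, had a signal value of 56.9 and rank 16959, and ranked 23029 and 15433 in the replicates. The upstream peak was thus the higher of the pair in both replicates. Replicate 1 alone had a summit at 1411427, 299 bp from the second TSS, with rank 22327. Counting all 8 genes, 4 pooled summits were within 500 bp of the gene's own TSS, in nSyb, Syx1A and futsch, and no IDR summit was.

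**Figure D2:**
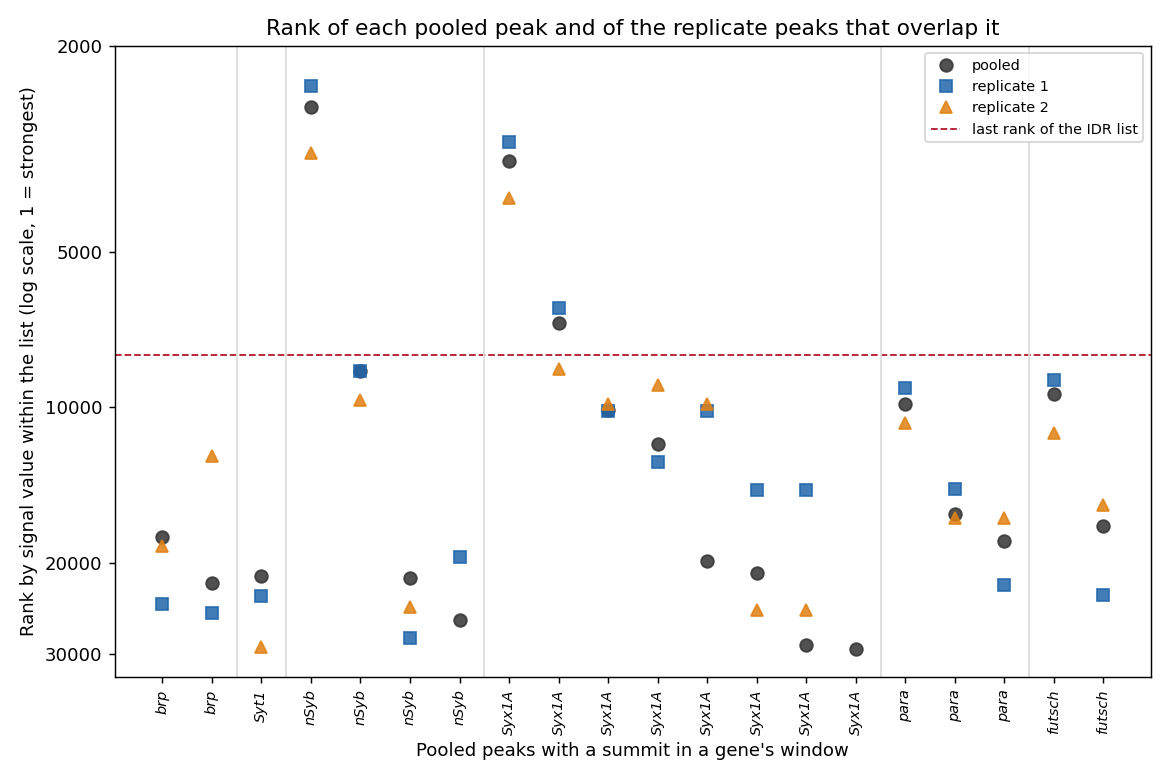
The rank of each of the 20 pooled peaks in the 8 windows is shown with the ranks of the replicate peaks that overlap it, on a log axis where a low rank is a strong peak, and the dashed line marks the last rank of the IDR set. The 3 IDR peaks of nSyb and Syx1A have ranks between 2395 and 8448, and below the line the values of a peak in the 3 lists lie up to 12516 ranks apart between the replicates.

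Most peaks of the 8 windows were found in both replicates, with wide differences in rank below the IDR set. All 3 IDR peaks were in both replicates, with rank differences of 828, 871 and 2028, while 99.3% of all IDR peaks were in both, with a median difference of 544 and a middle range of 180 to 1299. Of the 17 peaks below the IDR set, 15 were in both replicates (88.2%), against 63.7% of the 22073 such peaks of the whole pooled list. Their median rank difference was 3706, and that of all such peaks was 3517. Neither replicate ranked these genes higher throughout, as replicate 1 gave the better rank at 10 of 18 shared pooled peaks and replicate 2 at 8. At Syx1A these counts and rank differences take replicate peaks that overlap more than 1 pooled peak each time, among them a pair with summits 291 bp apart. All 17 peaks had a width of 376 bp with the summit in the middle, as had 95.8% of the pooled peaks below the IDR set, so the edges of these peaks carry no information on shape.

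Most of the 8 genes lie in long stretches without pooled summits. The longest stretch that touched the window was 95211 bp at brp, 94504 bp at para, 75597 bp at cac, 71375 bp at Rdl, 51577 bp at futsch and 30148 bp at Syt1. At nSyb it was 12586 bp and at Syx1A 2768 bp. The median distance between neighbouring pooled summits was 1206.5 bp, and of the 29994 such distances the stretch at brp ranked 155 and that at Syt1 653. A long window with few summits must touch a long stretch, and at cac and Rdl it covers the whole window. The stretches therefore restate the low counts, and none were taken for genes of like length. From the first gene start, the nearest IDR summit was 52936 bp away for Rdl, 40003 bp for brp, 30533 bp for Syt1, 19610 bp for para, 15328 bp for cac and 10194 bp for futsch. Between 66.8% and 94.6% of all genes had a nearer one than each of these 6. For nSyb and Syx1A the distances of 1819 and 663 bp were below the median of 5169 bp.

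**Figure D3:**
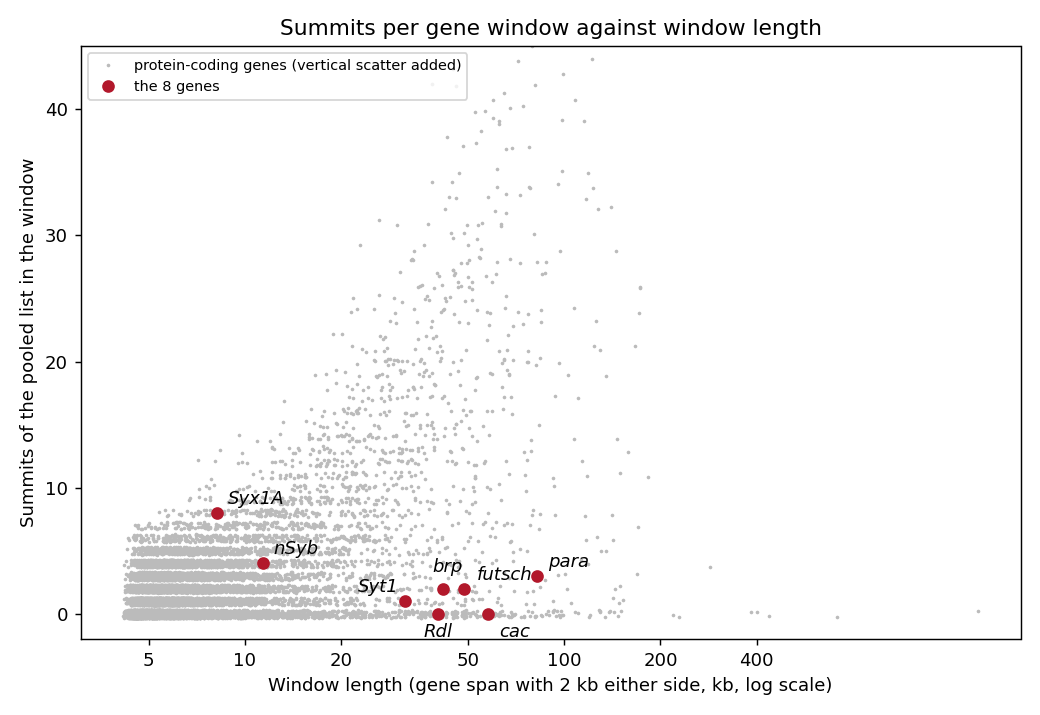
Pooled summits in the window are plotted against window length on a log axis, with the 8 genes labelled and all other protein-coding genes as grey points with some vertical scatter added, of which 38 lie above the plotted range. Syx1A, with 8 summits in 8164 bp, stands high for its length, and brp, Syt1, para, cac, futsch and Rdl, with 0 to 3 summits, are below the median of genes of like length.

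Set beside genes of like window length, 6 of the 8 had fewer pooled summits than the median. para had 3 where the median of 166 genes was 13.5, cac 0 where that of 285 was 10, and brp 2, futsch 2, Syt1 1 and Rdl 0 where the medians were 7. Between 24.2% and 37.7% of the genes of like length had at most as many, so such counts were not rare. nSyb had 4 where the median was 2, and 73.0% of its 1846 comparison genes had at most 4. The base composition of the windows ran from 36.7% GC at cac to 49.8% at futsch, around the median of 43.9% over all genes, and its part in the counts was not tested.

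Strong Bsh peaks did lie outside some of the windows, most of them at promoters of other genes. Within 10 kb of the span there were 9 further IDR summits, 3 each at brp and Syx1A, 2 at Syt1 and 1 at nSyb, and none at para, cac, futsch or Rdl. The strongest ranked 10 of all peaks with a signal value of 5961, 5627 bp beyond the 3′ end of brp and 234 bp from the TSS of CG1888. The nearest to a window edge were not in the promoter class. They were a peak in a 3′ UTR 2203 bp beyond brp at rank 5379 and a peak 2422 bp beyond the 3′ end of Syx1A at rank 1017. The latter was intronic with Syx1A as its nearest TSS, and was stronger than both IDR peaks inside the Syx1A window. Upstream of Syx1A by 3431 bp, a peak of rank 57 lay 142 bp from the TSS of CG18428. Upstream of nSyb by 7581 bp, a peak of rank 179 lay 134 bp from the TSS of CG13919. The summits near Syt1 were at the promoters of Snx21 and aph-1 (a gamma-secretase subunit), 6502 and 6298 bp beyond its 3′ end, at ranks 586 and 2475. Both were summits of the same region, from 2765549 to 2766228. Of the 9 summits, 7 were in the promoter class through a neighbour. elav, a pan-neuronal gene looked at as a locus in the same lists, had 5 IDR summits in its window and 3 in its span, with a best rank of 110. bsh itself had 2 IDR summits in its window and none in its span, with a best rank of 3470. For both loci no class, nearest TSS or share over genes of like length is given here.

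By location class, the 20 pooled summits were 7 promoter, 4 intron, 4 3′ UTR, 2 coding exon, 2 intergenic and 1 5′ UTR. In the whole pooled list 28.1% were in the promoter class and 43.9% in introns. The 7 promoter summits were through the gene itself at 4 and through Bgb, GC and CG15399 at 3. All 4 intron summits were at nSyb and Syx1A, and 3 of these lay in introns of eIF4EHP. Thus no pooled summit lay in an intron of para, cac, Rdl, brp, Syt1 or futsch, the long genes. Around the 20 summits, TAAT was within 50 bp at 14, TAATTG at 4, ATCGAT at 3, TAATTA at 2, and GAGAGA and CACACT at 1 each. Of all pooled summits, 65.9% had TAAT, 9.29% TAATTG, 3.86% ATCGAT, 7.53% TAATTA, 4.34% GAGAGA and 6.17% CACACT.

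A wider list of 90 genes in 5 roles placed the 8 genes among others of the same processes. Of these, 37 (41.1%) had an IDR summit in the window and 22 (24.4%) in the span, and 39 had no pooled summit. Over all protein-coding genes the IDR shares were 41.8% in the window and 15.6% in the span, so the share in the window was near that of all genes. A pooled summit was found at 56.7% of the 90 genes and at 62.5% of all genes. The windows of the 90 genes had a median of 22046 bp, longer than the 6166 bp of all genes, and no share in the span was taken over genes of like length. Numbers in parentheses after a gene are the pooled signal value of its strongest IDR peak. The vesicle release genes had 7 of 20 (35.0%) with an IDR summit in the window and 2 (10.0%) in the span, against the 41.8% and 15.6% of all genes. In that group the highest signal values were those of comt, the NSF ATPase that recycles SNAREs (495, 151 bp from its own TSS), Tomosyn (781) and Sytbeta (998), the last pair at promoters of other genes. Cadps and cpx (complexin, a clamp of fusion) had no IDR summit, and 1 and 4 pooled summits. Vesicle recycling had 4 of 10 (40.0%) in the window and 1 (10.0%) in the span, led by Amph (amphiphysin, 564, in an intron), AP-2alpha (560) and shi (dynamin, 232), again with the last pair at promoters of neighbours. Chc (clathrin heavy chain) and Dap160 (intersectin) had no IDR summit, and 1 and 0 pooled summits.

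Of 24 cation channel genes other than para and cac, 13 (54.2%) had an IDR summit in the window and 12 (50%) in the span itself, against 41.8% and 15.6% of all genes. Their windows were long, with a median of 31387 bp. Irk1 (1925), KCNQ (1551) and Ca-beta, a calcium channel subunit (1088), had their strongest in introns. The TSS nearest to that peak was another gene's at Irk1 and KCNQ, and Ca-beta's own at Ca-beta. Ca-alpha1D, another calcium channel, had no summit in the pooled list, as cac had none, and eag, a potassium channel, had 6 pooled and no IDR summits. Of 25 receptor genes 6 (24.0%) had an IDR summit in the window and 2 (8.0%) in the span. The neighbours GluRIIA and GluRIIB were both counted through the same peak. The strongest were at nAChRalpha5 (691, at the promoter of NimC4), Nmdar1 (423, in an intron) and nAChRalpha7 (419, intergenic), and GABA-B-R1 and GABA-B-R2, receptors for GABA as Rdl is, had no pooled summit. Of 11 genes of synapse structure and growth, the group nearest to futsch in role, 7 (63.6%) had an IDR summit in the window and 5 (45.5%) in the span, with a median window of 44112 bp. hiw, a ubiquitin ligase that limits synapse growth, had a peak of 1793 in an intron, and Nrx-1 (neurexin, 560) and Ank2 (ankyrin, 492) had theirs at their own promoters, while Nlg1 and Nlg2 had no pooled summit. At the intron peaks of Amph, Nmdar1 and hiw the nearest TSS was also another gene's. The groups were small and differ in gene length, and no difference between them was tested.

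**Figure D4:**
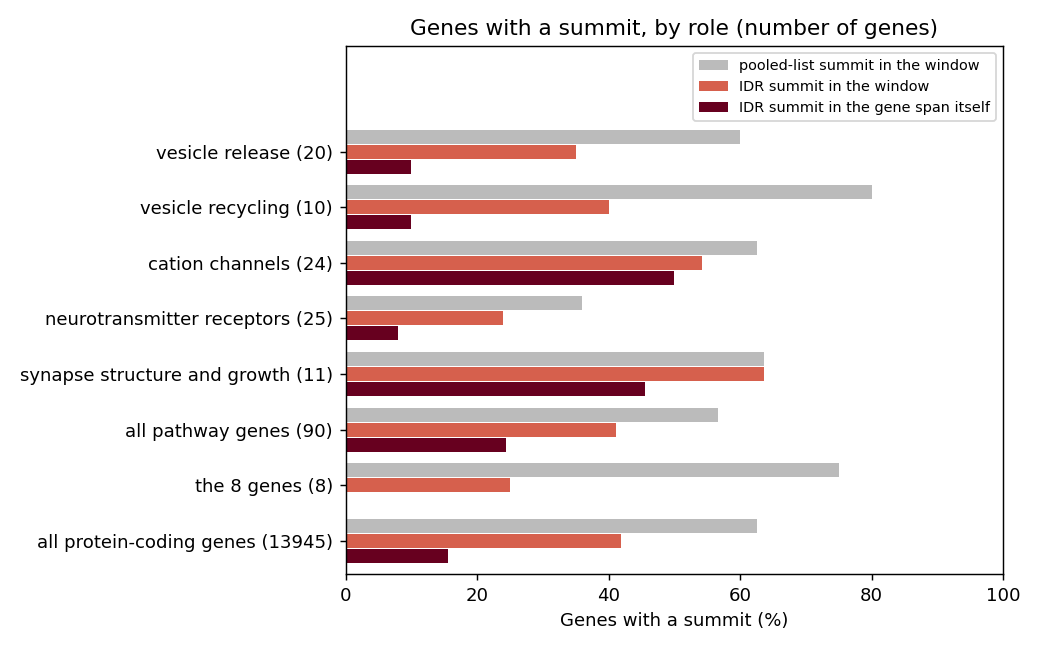
Bars give the percentage of genes with a pooled summit in the window, an IDR summit in the window and an IDR summit in the gene span, for 5 role groups, all 90 genes of the wider list, the 8 genes and all protein-coding genes, with the number of genes in parentheses. The 8 genes have 75% with a pooled summit, 25% with an IDR summit in the window and 0 with one in the span, and all protein-coding genes have 62.5%, 41.8% and 15.6%. The bars are not matched for window length, which has a median of 41056.5 bp in the 8 genes and 6166 bp in all genes.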

How the data were processed

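Chromatin of both replicates was sheared to 200 to 800 bp, per the labels. Per the deposited text files, each replicate's alignments and both together went into peak calling, all against 1 control file. The IDR set came from these lists. Which aligner, caller and threshold the authors used is not given in the sources used for this text, and the control was not analysed here. The signal value is a score that the authors' caller gave each peak, on a scale that differs between lists, and the summit offset is deposited beside it.

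Summits were placed on Ensembl release 115 gene models of genome release 6 with Python 3.11.15, numpy 2.4.6 and pandas 2.3.3, and plotted with matplotlib 3.10.9. Peaks were ranked by signal value within a list and matched by an overlap of at least 1 bp. A summit within 500 bp of any TSS was classed as promoter. Otherwise the first fitting class was taken, with UTRs before coding and other exons, then introns, then intergenic sequence. Counting was checked on simulated summits.

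The 8 genes and the wider list were chosen with earlier results of these data known. With 1 group, no test was made. The genes named are the 8, those that span or start nearest to their summits, elav, bsh, and in each role group the 3 with the strongest IDR peak and at most 2 that had no IDR summit, taken alphabetically. Genes beside the nearest summits outside the windows were named after their values were seen. Alternatives changed the flank, the peak set, the overlap and the promoter radius, or used 1 replicate.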

Additional observations from a re-analysis of the deposited data

How the results depend on the processing

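The count of genes with an IDR summit depended on the window. With no flank it was 0 of 8, with 10 kb either side 4, and within 1 kb of the gene's own TSSs 1. The summits were then 0, 12 and 1 in place of 3, and the genes of the wider list 22, 65 and 15 in place of 37. With the 1000 strongest IDR peaks, 0 of the 8 genes, 0 summits and 5 of the wider list were counted. With the strongest 3963, the genes stayed at 2, the summits were 2 and the wider list had 24. Any pooled peak gave 6 genes. When only the strongest peaks of 1 replicate at a time replaced the IDR set, the genes were 2 each time. The summits were then 2 to 3 and the wider list 38 to 40. This cut left out the replicate 2 peak of rank 8448 downstream of Syx1A. The whole list of either replicate, in place of the pooled list, gave 6 genes and 19 to 22 summits. Counting any base of a peak left the 8 genes at 2 and was not run for the wider list. Promoter summits were 7, and 8 or 6 with radii of 1000 or 250 bp. The share of all protein-coding genes with an IDR summit was 70.5% with 10 kb and 27.6% within 1 kb of a TSS. It was 27.6% with the strongest 3963 peaks, near the share of the 8 genes, and 9.54% with the 1000 strongest. No paired analysis was possible because the data hold a single group. Depth is unknown, and 2 replicates from 1 strain give no measure of variation between strains.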

Other observations

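The longest windows without a pooled summit in the wider list, looked up after the values were seen, were those of Snap25, a membrane SNARE that pairs with Syx1A and nSyb, with 229026 bp, and of Sh, the Shaker potassium channel, with 142941 bp.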
